A study of Mus musculus with 21 samples.

Results

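JQEZ5, a small-molecule inhibitor of the Polycomb repressive complex 2 (PRC2), was compared with its solvent DMSO in mouse acute myeloid leukaemia cells carrying the fusion gene NUP98-NSD1. The comparison was defined by the labels: the 3 JQEZ5 libraries and the 3 DMSO libraries of the inhibitor experiment, which are 6 of the 21 RNA-seq libraries of the series, across all 14178 genes of the deposited table. Both groups were the same established murine line, transformed by a flag-tagged NUP98-NSD1 and grown in medium with serum, beta-mercaptoethanol and stem cell factor. JQEZ5 was given at 3 µM, and RNA was collected from both groups after 4 days. A second PRC2 inhibitor, UNC1999, was given to 3 further libraries at 3 µM for 4 days. These served to estimate the spread and for a direct comparison of the inhibitors. The line is a single in vitro model driven by an introduced oncogene, and nothing in the labels ties the 3 libraries of a group to cultures of their own. The p-values therefore measure only the spread between these libraries, which may be technical.

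PRC2 places methyl groups on lysine 27 of histone H3 through its catalytic subunit EZH2 or the related EZH1, and trimethylated lysine 27 is a mark of silenced genes. EED and SUZ12 hold the complex together, and PRC1 is a separate Polycomb complex that ubiquitinates histone H2A. NUP98 fusions keep HOXA genes and their cofactor MEIS1 expressed, which holds myeloid progenitors in a self-renewing state. Kdm5b is the gene of an H3K4 demethylase that the title of the series names together with PRC2. The inhibitors act on enzyme activity, so transcript levels of the PRC2 genes do not show how far the enzyme was inhibited. No measurement of histone methylation was used here.

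The values are the authors' log2 variance-stabilised values, from which library-normalised read counts were recovered. Total counts, in M (mega) reads, were 13.58 to 15.31 in the DMSO libraries, 15.58 to 18.93 in the JQEZ5 libraries and 12.81 to 17.32 in the UNC1999 libraries. Replicates correlated at Pearson r of 0.9970 to 0.9978 across genes within DMSO and within JQEZ5. No pair was a duplicate: chi-square per degree of freedom between replicates was 2.80 to 6.19. The myeloid leukaemia identity of the cells was visible in all 6 libraries, with Mpo, the myeloperoxidase gene, at 66065 to 71353 normalised counts, Ptprc, the pan-leukocyte CD45 gene, at 11846 to 12967 and the fusion target Hoxa9 at 1391 to 1952. A gene's fold change below is the ratio of mean normalised counts, whereas its log2 difference (± standard error) comes from limma on the variance-stabilised scale, which compresses low counts. Means are given ± SD over n = 3 libraries, and a gene was called at a Benjamini-Hochberg adjusted p under 0.05 over all tested genes.

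JQEZ5 changed many genes by a little and few by much. Of 10694 genes above a low-value filter, 1403 were called higher (13.1%) and 1126 lower (10.5%), together 23.6%; 3680 had an unadjusted p under 0.05. The median fold of the called genes was 1.22 upward and 1.18 downward. The called genes that also moved at least 2-fold numbered 95 upward (0.888% of those tested) and 21 downward (0.196%), and 32 against 5 moved at least 3-fold. The filter counted the JQEZ5 and UNC1999 libraries too, so a scarce gene could pass it by rising. Among the genes that passed, higher ones outnumbered lower ones most clearly at large folds. At the level of all calls that order depended on scaling: with each library centred on its median, 1222 genes were higher and 1330 lower, although the median difference over all tested genes moved only from 0.0059 to -0.0071. The 3 JQEZ5 libraries lay entirely above the DMSO range for 2364 of the 10694 tested genes and entirely below it for 2085. These included 1386 of the genes called higher and 1112 of those called lower, so separated groups were also common among genes not called.

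Calls were more frequent at high expression. In a fit of all 14178 genes without the filter, 9.44% were higher and 7.64% lower. By mean normalised count, the share called higher was 1.47% under 20, 6.93% from 60 to 200, 13.4% from 600 to 2000 and 27.7% from 6000 upward, and the share called lower in the same bands was 0.533%, 5.07%, 11.6% and 16.6%. Large folds had the opposite distribution: 40 genes between 60 and 200 counts were called higher at 2-fold or more, against 3 between 2000 and 6000 counts. In this unfiltered fit, calls at 2-fold or more were 32 higher and 12 lower under 20 counts. They were 32 and 18 from 20 to 60 counts, and 40 and 13 from 60 to 200. Counting error is larger at low counts, and the variance-stabilised scale compresses them, so small differences in scarce transcripts may have been missed. The part of each in the calls was not tested.

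**Figure D1:**
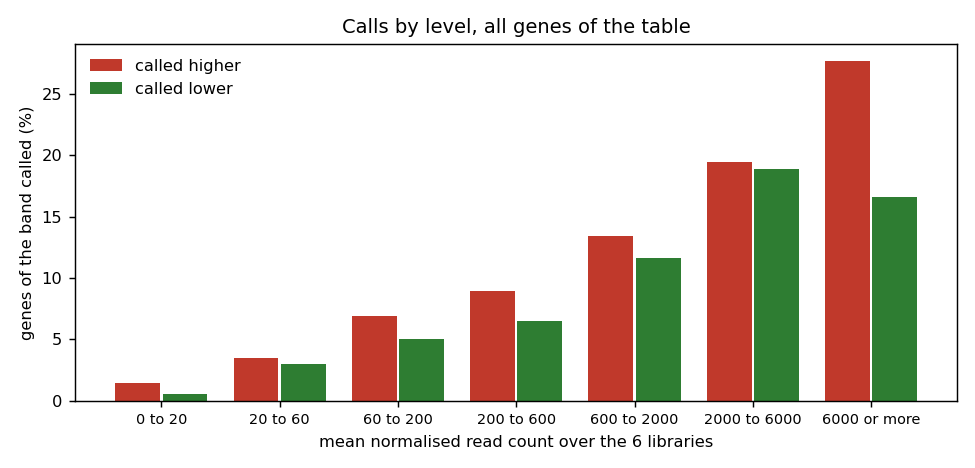
Percent of genes called higher (red) or lower (green) with JQEZ5 (y axis) in 7 bands of the mean normalised read count over the 6 DMSO and JQEZ5 libraries (x axis), from the fit without a filter. The share called higher goes from 1.47% in the lowest band to 27.7% in the highest, and the share called lower from 0.533% to 16.6%, with 18.9% in the band below the highest.

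The PRC2 genes themselves were nearly flat. Ezh2 stood at 1748, 1687 and 1821 normalised counts with DMSO and at 1712, 1812 and 1730 with JQEZ5. The groups overlapped, and the 95% interval of the log2 difference was -0.11 to 0.11 (limma adjusted p = 0.998). Ezh1 was at 912 ± 31.0 and 861 ± 22.4, with a log2 difference of -0.07 ± 0.04 (limma adjusted p = 0.228), and Eed at 542 ± 4.06 and 541 ± 20.7. None of the 11 tested PRC2 genes rose and 3 fell, beside 13.1% higher and 10.5% lower of all tested genes. The 3 were all non-catalytic core subunits. Suz12 fell to 0.895 times DMSO, and the histone-binding subunit genes Rbbp4 and Rbbp7 to 0.911 and 0.901 times DMSO (limma adjusted p 0.00429 to 0.0101). The call of Suz12 was lost without DMSO replicate 1 (limma adjusted p = 0.0588).

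Kdm5b was slightly higher in every JQEZ5 library but did not pass the threshold. Its DMSO libraries read 624, 595 and 604 normalised counts and its JQEZ5 libraries 666, 658 and 649. The groups did not overlap, and the difference was 1.08-fold (log2 0.09 ± 0.04, 95% interval 0.01 to 0.17, limma adjusted p = 0.112). Among the 13 tested demethylase and MLL-family methyltransferase genes, 1 rose and 5 fell, beside 13.1% higher and 10.5% lower of all tested genes. The H3K27 demethylase gene Kdm6b fell to 0.730 times DMSO, Kdm5a, a paralogue of Kdm5b, to 0.856 times and the H3K4 methyltransferase gene Setd1b to 0.782 times. The H3K4 demethylase gene Kdm1b was the member that rose, by 1.24-fold, but its call was lost without any 1 of the DMSO libraries or JQEZ5 replicate 1 (limma adjusted p 0.0515 to 0.103).

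Bmi1 had the largest change among Polycomb genes. It encodes PCGF4, the subunit that defines canonical PRC1 together with PCGF2 and supports stem cell self-renewal. Its 3 DMSO libraries were at 432, 430 and 430 normalised counts and its JQEZ5 libraries at 704, 790 and 704, a 1.70-fold rise (log2 0.56 ± 0.04, limma adjusted p = 1.61e-07). Every JQEZ5 library thus lay far above the narrow DMSO range. Of the 19 tested PRC1 genes, Pcgf5 also rose (1.23-fold), a call lost without replicate 2 of either group or the third JQEZ5 library (limma adjusted p 0.0503 to 0.0737). Of the 2 that fell, Rybp, a subunit of variant PRC1, was at 0.889 times DMSO. With 2 higher and 2 lower of 19, the PRC1 list was close to the shares of all tested genes (13.1% and 10.5%). Of 8 tested DNA methylation genes, Dnmt3a rose 1.21-fold and Dnmt1, Uhrf1 and Tet2 fell to between 0.831 and 0.899 times DMSO.

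Several HOX genes and the HOXA9 partner gene Meis1 fell. The median log2 difference of the 10 tested HOX genes was -0.15, against 0.01 over all tested genes. Of the 10, 5 fell and none rose, beside 10.5% lower and 13.1% higher of all tested genes. Hoxa9 fell from 1887, 1952 and 1808 normalised counts with DMSO to 1411, 1410 and 1391 with JQEZ5, which is 0.746 times DMSO (limma adjusted p = 1.45e-06). Hoxa5 averaged 64.4 counts with DMSO and 40.8 with JQEZ5, the latter under the filter of 59.0 counts, so its call is a description. Hoxa3 was at 0.588, Hoxa5 at 0.633, Hoxb3 at 0.779 and Hoxa7 at 0.879 times DMSO. Of these, 3 did not keep their call when single libraries were left out. That of Hoxb3 was lost without any 1 library other than JQEZ5 replicate 3 (limma adjusted p 0.053 to 0.111), that of Hoxa5 without replicate 1 or 2 of DMSO or replicate 2 or 3 of JQEZ5 (0.0512 to 0.103), and that of Hoxa7 without replicate 2 or 3 of DMSO or replicate 2 of JQEZ5 (0.0509 to 0.0932). Meis1, the DNA-binding partner of HOXA9, fell from 495, 488 and 446 to 364, 346 and 341 counts (0.735 times DMSO, limma adjusted p = 0.000444). For both Hoxa9 and Meis1 the JQEZ5 libraries lay below every DMSO library.

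Other self-renewal genes went the opposite way. Kit, the receptor for the stem cell factor in the medium, rose from 2013 ± 42.7 to 2373 ± 13.2 counts (1.18-fold). Myc rose 1.16-fold and Myb, a transcription factor on which many myeloid leukaemias depend, 1.12-fold (limma adjusted p 0.000153 to 0.00507 for these 3). Lmo2, Mef2c and Erg fell to between 0.817 and 0.886 times DMSO, so 3 of the 12 tested members rose and 5 fell, Meis1 among them. Over all tested genes 13.1% rose and 10.5% fell. Erg lost its call without any 1 library other than JQEZ5 replicate 1 (limma adjusted p 0.0937 to 0.164) and in the fit with the replicate number as a block (0.0665). Among cell cycle inhibitors Cdkn2a, the Ink4a and Arf locus and a classical PRC2 target, rose from 89.8, 114 and 96.9 to 160, 159 and 154 counts (1.57-fold, limma adjusted p = 0.00143). Cdkn1a, which encodes p21, was at 3017 ± 142 and 3148 ± 171 (limma adjusted p = 0.347), and Cdkn2d and Cdkn1b fell to 0.854 and 0.890 times DMSO, the latter not without DMSO replicate 1 (limma adjusted p = 0.0532).

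Genes known from macrophages were among the 15 largest rises. Gpnmb, a transmembrane glycoprotein gene of lysosome-rich macrophages (chr6:49036546-49070929, mm10, plus strand), went from 5144, 5243 and 5278 normalised counts with DMSO to 32826, 31997 and 32588 with JQEZ5. That 6.22-fold rise (log2 2.58 ± 0.02, limma adjusted p = 5.54e-19) was the largest fitted difference of any gene. Spp1, the gene of the secreted phosphoprotein osteopontin, rose from 1544, 1495 and 1599 to 5146, 5347 and 5176 counts (3.38-fold). Irg1, which encodes the enzyme that makes itaconate in activated macrophages, rose from 565 ± 10.9 to 1891 ± 60.4 counts (3.35-fold). Within each of these genes the 3 JQEZ5 libraries were close together and far from DMSO.

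The monocyte and macrophage list moved mainly upward: 22 of its 34 tested members were called higher, 3 lower and 9 neither, with a median log2 difference of 0.32. Over all tested genes 13.1% were higher and 10.5% lower. Arg1, arginase 1, rose 3.27-fold, and the macrophage surface genes Cd68, Msr1 (a scavenger receptor) and Adgre1 (the F4/80 antigen) rose 2.28-, 2.28- and 1.90-fold. Trem2, a lipid-sensing receptor, rose from 923 ± 36.5 to 1405 ± 78.8 counts. Mmp13 and Mmp12, secreted metalloproteinase genes, rose 3.64- and 2.06-fold. Mmp13 and Mrc1, both among the 22, averaged 51.9 and 38.3 counts with DMSO, under the filter of 59.0 counts. They entered the test only with the help of inhibitor libraries, so their calls are a description. The rise was not general: Csf1r, the macrophage colony-stimulating factor receptor, rose only 1.16-fold and Itgam (CD11b) was at 15099 ± 85.2 and 15474 ± 252 (limma adjusted p = 0.348). The chemokine receptor Ccr2 and the Fc receptors Fcgr1 and Fcgr4 fell to between 0.776 and 0.892 times DMSO. The call of Ccr2 was lost without replicate 1 of DMSO or of JQEZ5 (limma adjusted p 0.055 and 0.0603), and that of Fcgr1 without replicate 1 or 2 of DMSO or replicate 1 or 3 of JQEZ5 (0.0554 to 0.112). In these bulk libraries, more cells of a macrophage-like state and more RNA per cell cannot be told apart, and likewise for every fall below.

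**Figure D2:**
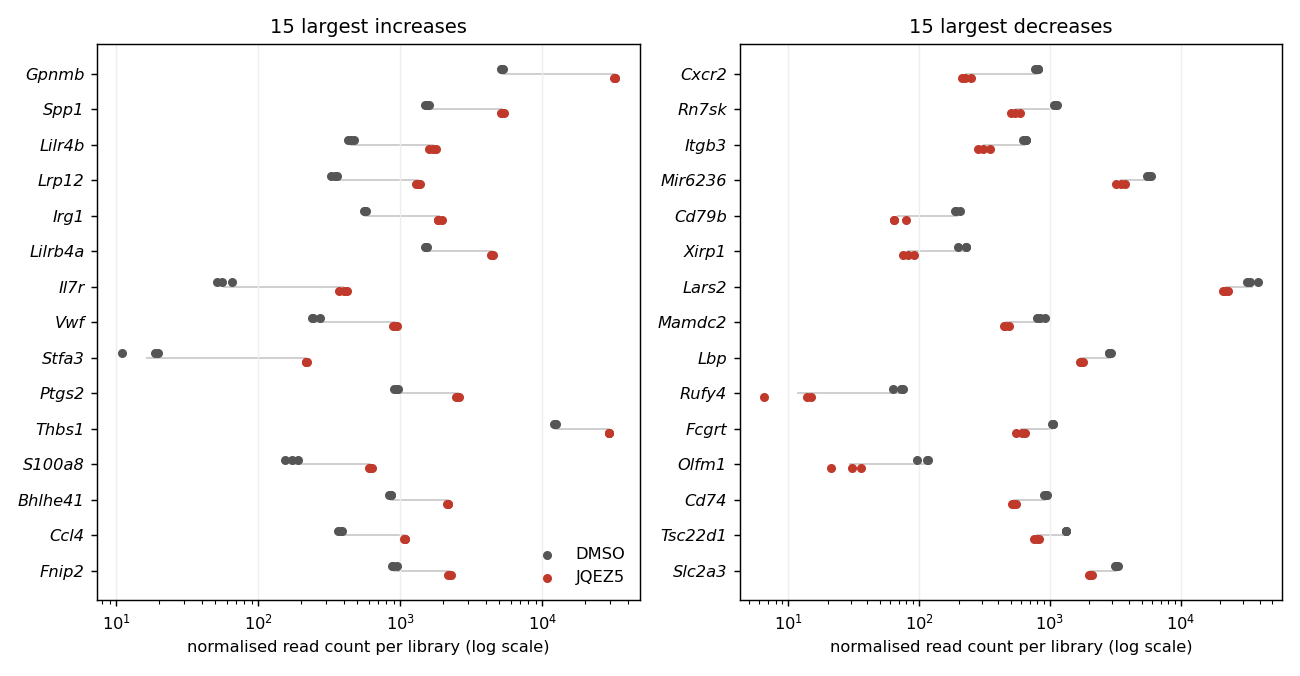
Normalised read count of each DMSO library (grey) and JQEZ5 library (red) on a log axis for the 15 called genes with the largest rises (left) and the 15 with the largest falls (right), ordered by the fitted log2 difference and leaving out predicted genes and pseudogenes. Only genes whose 3 red and 3 grey points do not overlap were eligible, so the separation in every row was fixed by the selection. The average count goes from 5222 to 32470 for Gpnmb, the largest rise, and from 3216 to 2035 for Slc2a3, the last of the falls.

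Several of the other large rises encode immune receptors and secreted factors. Lilr4b and Lilrb4a, neighbouring inhibitory immunoglobulin-like receptor genes on chromosome 10, rose from 451 ± 21.4 to 1694 ± 91.0 and from 1515 ± 29.8 to 4440 ± 80.2 counts; as near-identical copies their reads may have been split uncertainly. Il7r, the interleukin-7 receptor chain usually studied in lymphocytes, rose from 51.3, 55.7 and 66.0 to 425, 370 and 401 counts (6.92-fold). It passed the filter of 59.0 counts only with the help of inhibitor libraries, so its call is a description. Ptgs2, the inducible cyclooxygenase, rose 2.71-fold and Thbs1, thrombospondin 1, from 12288 ± 153 to 29396 ± 74.0 (2.39-fold). Vwf, von Willebrand factor, rose from 252 ± 17.5 to 925 ± 30.3. The lipoprotein receptor family gene Lrp12 rose 3.86-fold, Bhlhe41, a basic helix-loop-helix repressor, 2.53-fold, and Fnip2, a partner of folliculin in lysosomal nutrient signalling, 2.47-fold.

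Most of the tested lysosomal genes rose. The lysosome degrades proteins, sugars and lipids with acid hydrolases, and a proton pump keeps its lumen acidic. Of 45 tested genes 27 were called higher and 4 lower, against 13.1% and 10.5% of all tested genes, with a median log2 difference of 0.13. Of 10 protease genes 8 were higher and 2 lower. Ctsl, cathepsin L, rose from 7775, 7553 and 7701 to 13676, 13803 and 13950 counts (1.80-fold, limma adjusted p = 1.64e-12). Ctsb and Ctsd, the abundant cathepsins B and D, rose 1.59- and 1.46-fold, and Ctss, cathepsin S, 1.73-fold. Ctsk, the collagen-degrading cathepsin best known in osteoclasts, rose from 21.7, 18.9 and 19 to 156, 154 and 141 counts (7.57-fold). It is among the 8, but it lay below the filter in every DMSO library and entered the test only through inhibitor libraries, so its call is a description. For each of these cathepsins the groups were far apart. Ctsc, which activates neutrophil serine proteases, fell to 0.671 times DMSO.

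The other roles in the lysosome moved less. Of 15 glycosidase and lipase genes 8 rose and 2 fell, led by Gla, alpha-galactosidase A (1.52-fold); Man2b1, a lysosomal alpha-mannosidase, fell to 0.795 times DMSO. Of 9 membrane protein genes 4 rose, Gpnmb among them, and Lamp1, Lamp2 and Mcoln1 were among the 5 not called. Of 11 proton pump subunit genes 7 rose and none fell, with Atp6v1c1 at 1.47-fold and Atp6v0c at 1.24-fold. The regulators of lysosomal genes differed: Mitf rose from 852, 806 and 935 to 1235, 1312 and 1255 counts (1.47-fold, limma adjusted p = 2.68e-06), whereas its relatives Tfeb, Tfe3 and Tfec were at 0.940, 0.952 and 0.969 times DMSO (limma adjusted p 0.294 to 0.416).

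The MITF and TFE proteins bind the letters CACGTG, so RefSeq promoter windows (GRCm38.p6, 250 bases before to 50 bases after a start) were searched for them on both strands. Among called-higher lysosomal genes with a window 7 of 20 held CACGTG (35.0%), beside 5 of 15 lysosomal genes not called higher (33.3%), 12.4% of all tested genes with a window and 7.15% of all windows. The letters were therefore frequent in the list whether or not a member rose. The related CATGTG was present in 6 of 20 (30.0%), in 3 of the 15 others and in 10.2% of tested genes. Examples are shown because they carry the letters close to the start in genes that rose with JQEZ5. Atp6v0b, a proton pump subunit gene, rose 1.11-fold and Ctsd 1.46-fold. The 120 bases before the start of each are given 5′ to 3′ on the minus strand of the gene, with CACGTG in capitals, from chr4:117887330-117887449 and chr7:142387828-142387947:
Atp6v0b: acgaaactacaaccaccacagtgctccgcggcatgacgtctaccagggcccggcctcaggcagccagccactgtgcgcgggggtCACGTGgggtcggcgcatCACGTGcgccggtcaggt
Ctsd: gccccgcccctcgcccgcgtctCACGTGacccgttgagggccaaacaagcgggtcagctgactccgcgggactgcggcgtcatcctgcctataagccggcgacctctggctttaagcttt

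Of 8 transcription regulator genes of the integrated stress response 5 rose and none fell, beside 13.1% higher and 10.5% lower of all tested genes. In this pathway stress kinases phosphorylate the initiation factor eIF2, which favours translation of ATF4, and ATF4 with its partners then induces genes for amino acid supply. Atf4 rose from 2478, 2419 and 2586 to 3086, 3196 and 3144 counts (1.26-fold, limma adjusted p = 4.05e-06). Atf5 rose from 310, 359 and 323 to 790, 683 and 707 counts (2.2-fold), and Atf3 from 1002 ± 31.6 to 1620 ± 59.2 (1.62-fold). Ddit3, which encodes CHOP, and Trib3, a pseudokinase gene, rose 1.82- and 1.54-fold from about 82 counts each. In all 5 the JQEZ5 libraries lay above the DMSO range, as they did for 2364 of the 10694 tested genes. Cebpg and Cebpb, partners of ATF4, were at 0.908 and 1.00 times DMSO and were not called, and neither was any of the 6 kinase and phosphatase genes.

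Across the pathway, 16 of the 58 tested members rose and 5 fell, beside 13.1% higher and 10.5% lower of all tested genes, with a median log2 difference of 0.04. Slc7a11, the cystine and glutamate exchanger, rose from 172, 160 and 151 to 532, 603 and 547 counts (3.48-fold, limma adjusted p = 9.64e-11), and its heavy chain partner gene Slc3a2 rose 1.26-fold. Asns, asparagine synthetase, rose from 1448, 1411 and 1382 to 1696, 1772 and 1616 counts (1.20-fold). The serine synthesis gene Phgdh fell to 0.910 times DMSO, and Psat1 and Shmt2 were at 0.925 and 0.944 times without being called. Of 20 tRNA synthetase genes 5 rose, including Dars at 1.17-fold, and 2 fell. Leaving out any 1 library gave 12 to 14 members called higher.

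TGATGNAA is the core of the composite element bound by ATF4 with C/EBP proteins. It occurred on either strand in the promoter windows of 5 of 15 called-higher members (33.3%), of 8 of 30 members not called higher (26.7%), of 2.75% of tested genes and in 3.97% of all windows. As for the lysosomal genes, the letters did not separate members that rose from those that did not. The 3 members below rose and carry the letters within 120 bases before a RefSeq start; they are shown on the minus strand, 5′ to 3′, with each match in capitals. Slc7a11 holds 2 matches, starting 66 and 47 bases before the start, and the second reads as the reverse complement. The windows are chr3:50443614-50443733 for Slc7a11, chr1:191183334-191183453 for Atf3 and chr6:7693210-7693329 for Asns:
Slc7a11: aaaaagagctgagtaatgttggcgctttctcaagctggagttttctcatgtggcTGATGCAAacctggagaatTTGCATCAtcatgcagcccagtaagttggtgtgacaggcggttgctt
Atf3: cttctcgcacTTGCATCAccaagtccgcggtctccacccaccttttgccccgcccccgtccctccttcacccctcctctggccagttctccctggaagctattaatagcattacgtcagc
Asns: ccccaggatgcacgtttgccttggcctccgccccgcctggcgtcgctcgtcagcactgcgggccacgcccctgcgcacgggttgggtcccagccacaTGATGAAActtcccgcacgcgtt

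Of 22 tested genes of the unfolded protein response of the endoplasmic reticulum 1 rose and 4 fell, and 23.6% of all tested genes were called in either direction. Hspa5, the chaperone BiP, was at 19425 ± 71.8 and 20101 ± 608 counts (1.03-fold, limma adjusted p = 0.216), and the sensor genes Atf6 and Ern1 fell to 0.823 and 0.842 times DMSO. Xbp1, the target of ERN1 splicing, was at 0.931 times (limma adjusted p = 0.0539).

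Of 30 tested NRF2, glutathione, haem and iron genes 16 rose, 2 fell and 12 were not called, beside 13.1% higher and 10.5% lower of all tested genes. By role, 6 of 10 haem and iron genes rose, 5 of 9 redox genes rose and 2 fell, and 3 of 8 glutathione genes rose, Slc7a11 among them. Fth1, the ferritin heavy chain, rose from 40077, 41674 and 42229 to 78690, 73323 and 76511 counts (1.84-fold, limma adjusted p = 2.53e-10), and Ftl1, the light chain, 1.16-fold, although Ftl1 was not called after quantile normalisation (limma adjusted p = 0.486). The iron exporter gene Slc40a1 rose from 83.5 ± 6.12 to 190 ± 14.3 counts, and the phagosomal metal transporter gene Slc11a1 1.36-fold. Nfe2l2, which encodes NRF2, rose 1.18-fold, and the NRF2 targets Srxn1 and Gstm1 rose 1.37- and 1.40-fold. Hmox1, haem oxygenase 1, was at 9158 ± 58.9 and 9629 ± 251 counts (limma adjusted p = 0.0764). Of 23 tested fatty acid synthesis and lipid handling genes 8 rose and 4 fell, and of the 10 for uptake and storage 5 rose and 3 fell. Among those that rose, the cholesterol efflux pump genes Abca1 and Abcg1 rose 1.85- and 2.19-fold and the lipid droplet gene Plin2 1.26-fold. Of 23 cholesterol synthesis genes 3 rose, led by Sqle (1.43-fold), and 2 fell, shares close to those of all tested genes (13.1% and 10.5%).

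**Figure D3:**
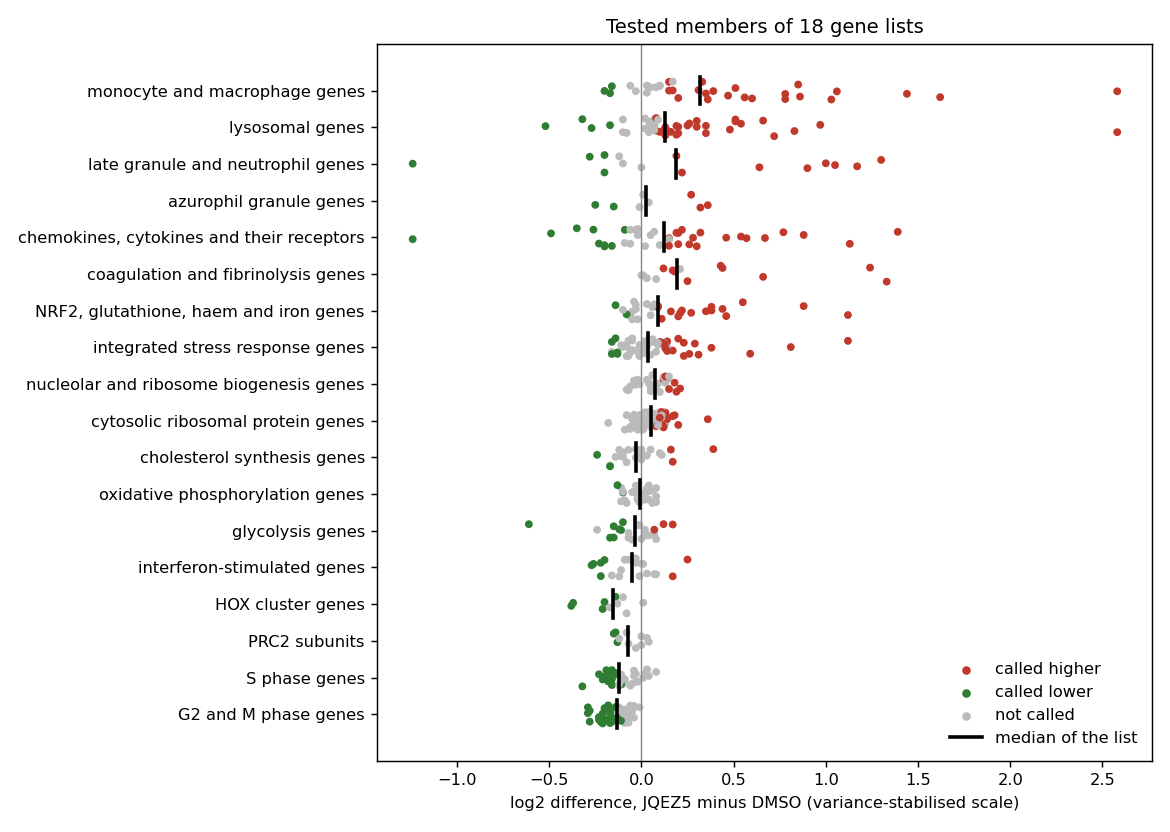
Log2 difference between JQEZ5 and DMSO on the variance-stabilised scale (x axis) for every tested member of 18 gene lists (y axis), coloured red if called higher, green if called lower and grey otherwise, with a black bar at each list's median. Monocyte and macrophage genes have the highest median (0.32) and HOX cluster genes the lowest (-0.15), with S phase (-0.12) and G2 and M phase genes (-0.13) also to the left of 0.

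Proliferation genes fell by small amounts. Of 39 S phase genes 18 were called lower and none higher (median log2 -0.12), and of 43 G2 and M phase genes 24 were lower and none higher (median -0.13). Over all tested genes 10.5% were lower and 13.1% higher. Cdc6, which loads the replicative helicase, fell from 1125, 1121 and 1089 to 850, 857 and 845 counts (0.765 times DMSO, limma adjusted p = 0.000244). Rrm1, the large ribonucleotide reductase subunit, and the helicase gene Mcm3 fell to 0.869 and 0.892 times. Top2a, topoisomerase II alpha, fell from 8568, 8092 and 8353 to 6573, 7140 and 6653 counts (0.814 times, limma adjusted p = 1.36e-05). Mki67, the gene of the proliferation antigen Ki-67, and the condensin gene Ncapd2 fell to 0.818 and 0.814 times DMSO. The highest JQEZ5 library of each was below the lowest DMSO library, yet no member of either list changed by as much as 2-fold.

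Some genes of ribosome synthesis rose. Of 30 nucleolar and ribosome biogenesis genes 8 rose and none fell (median log2 0.07), among them Npm1, nucleophosmin (1.13-fold), Ncl, nucleolin (1.10-fold), and Gnl3, nucleostemin (1.21-fold). This count was sensitive: it was 4 without DMSO replicate 2 and 5 without JQEZ5 replicate 3. Npm1 was not called after quantile normalisation (limma adjusted p = 0.11), nor Ncl without the intensity trend (0.0538). Of 77 cytosolic ribosomal protein genes 14 rose and none fell, a share upward near the 13.1% of all tested genes. Per library, the mean of that list lay 0.111, -0.002 and 0.042 log2 units from the DMSO mean, so JQEZ5 replicate 2 was inside the DMSO range of -0.009 to 0.007. Of 29 translation and chaperone genes known as MYC targets 8 rose, led by Eif4a1 (1.18-fold), and 4 fell. Oxidative phosphorylation genes were flat, with 2 of 42 lower, none higher and a median of -0.01.

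Granule genes of neutrophils showed a mixed response. Among azurophil granule genes, which mark promyelocytes, Elane rose from 14291 ± 284 to 18386 ± 832 counts (1.29-fold) and Ctsg 1.25-fold, while Prtn3 and Hp fell to 0.901 and 0.843 times DMSO and Mpo was at 1.03 times. Prtn3 was not called without JQEZ5 replicate 2 (limma adjusted p = 0.0505). Among late genes, S100a8 and S100a9, the subunits of calprotectin, rose from 192, 154 and 173 to 612, 635 and 604 counts and from 6.91, 22.3 and 15.0 to 146, 169 and 133 counts. Stfa3, a member of the stefin A protease inhibitor family with close paralogues, rose from 16.6 ± 4.83 to 218 ± 1.69 counts. Like Ctsk and S100a9, Stfa3 was below the filter of 59.0 counts in all DMSO libraries and passed it only through inhibitor libraries. The secreted granule genes Lyz2, lysozyme, and Olfm4 rose 1.87- and 2.31-fold. Of 15 tested late granule and neutrophil genes 8 rose and 4 fell, the latter including the granulocyte colony-stimulating factor receptor gene Csf3r (0.851 times). Stfa3 and S100a9 are among the 8, and their calls are a description because of the filter. The shares over all tested genes were 13.1% higher and 10.5% lower.

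Cxcr2 fell more than any other named gene on the log2 scale. It encodes the receptor through which neutrophils follow CXC chemokines (chr1:74153989-74161246, mm10, plus strand). Its DMSO libraries read 815, 812 and 763 normalised counts and its JQEZ5 libraries 211, 249 and 225, a fall to 0.286 times DMSO (log2 -1.24 ± 0.05, limma adjusted p = 9.52e-11). Its neighbour Rufy4 (chr1:74125541-74148223) fell from 63.2, 75.7 and 72.9 to 6.55, 14.9 and 13.9 counts, 0.167 times DMSO. Both genes were low in every JQEZ5 library. Rufy4 passed the filter of 59.0 counts only through its DMSO libraries, so its call is a description. A predicted gene left out by the naming rule, Gm13167, had a larger fitted fall, from 102, 244 and 39 counts to 0 in all 3 JQEZ5 libraries (limma adjusted p = 0.00874), and was singled out after its values were seen. Its call was lost without DMSO replicate 2 (limma adjusted p = 0.0516) and with robust variances (0.125). Of 6 tested chemokine ligand genes 3 rose and 1 fell. Ccl4 rose from 381 ± 11.9 to 1076 ± 13.1 counts, Ccl3 1.93-fold, and Cxcl2, a ligand of CXCR2, 2.55-fold. Ccl24 fell to 0.727 times DMSO, a call lost without any 1 library other than JQEZ5 replicate 1 (limma adjusted p 0.0577 to 0.164) and with the replicate block (0.051), and Ccl6 and Ccl9 were at 1.13 and 1.01 times and were not called. Csf1, the ligand of CSF1R, rose 3.23-fold from 67.3 ± 2.94 counts and Il1b 1.56-fold. Of 38 tested chemokine, cytokine and receptor genes 18 rose and 9 fell, beside 13.1% higher and 10.5% lower of all tested genes.

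The other large falls were in genes of varied function. Itgb3, the integrin beta 3 chain, fell from 657, 655 and 620 to 349, 308 and 283 counts (0.487 times DMSO). Cd79b, a signalling chain of the B cell receptor, fell from 190, 187 and 206 to 64.7, 64.1 and 79.5 counts, and Xirp1, an actin-binding protein gene, to 0.380 times. Among antigen presentation genes the 3 tested class II members had 2 falls and no rise, whereas the 20 class I members had 4 rises and 2 falls (median log2 0.02). Over all tested genes 13.1% rose and 10.5% fell. Cd74, the class II invariant chain, fell from 922 ± 23.4 to 528 ± 21.5 counts, and H2-Oa, a class II-like gene, to 0.620 times, while Fcgrt, the neonatal Fc receptor, fell to 0.577 times. Lbp, the lipopolysaccharide-binding protein gene, fell to 0.610, the glucose transporter gene Slc2a3 to 0.633 and Tsc22d1 to 0.596 times DMSO. Olfm1 and Mamdc2 fell to 0.271 and 0.547 times.

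Among transcription factors of the myeloid lineage 7 of 29 rose and 7 fell. Beside this and the other lists here, 13.1% of all tested genes were called higher and 10.5% lower. Egr1, among the factors that rose, averaged 52.0 counts with DMSO, under the filter of 59.0 counts, so its call is a description. Maf rose 1.72-fold, Id2, an inhibitor of basic helix-loop-helix factors, 1.61-fold and Klf6 1.40-fold. The monocyte factor gene Irf8 fell from 2222 ± 57.6 to 1912 ± 65.7 counts, and Irf5 to 0.800 times DMSO. Spi1, which encodes PU.1, was at 1.01 times (limma adjusted p = 0.835), and Cebpa at 0.902 times (limma adjusted p = 0.0597). Of 24 p53 pathway genes 4 rose and 3 fell, near the shares of all tested genes (13.1% and 10.5%); the rise of Plk2, a polo-like kinase gene, was 3.22-fold, and the next was 1.13-fold. In the BCL2 family 4 of 13 tested genes rose and 2 fell. Of 5 survival genes 2 rose, including Mcl1 (1.18-fold), and none fell. Of 8 effector and BH3-only death genes 2 rose and 2 fell, the falls including Bmf, at 0.684 times DMSO. Interferon-stimulated genes had 2 members higher and 5 lower of 20, and glycolysis genes 3 higher and 7 lower of 22. In both lists the share higher was close to that of all tested genes. Of 14 coagulation and fibrinolysis genes 9 rose, Thbs1 and Vwf among them, and none fell.

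Scarce transcripts held some of the steepest changes. Of the 3484 genes under the filter 94 were called when all genes were fitted, 52 higher and 42 lower. Leaving out predicted genes and pseudogenes, the 8 largest differences there were Hyal1, Neo1, Ighv14-1, Mcoln2, Atp6v0d2 and Col23a1 upward and Rnf122 and Stc1 downward. Hyal1, a lysosomal hyaluronidase gene, went from 0.987, 4.45 and 0.999 to 28.7, 15.8 and 31.8 normalised counts. Atp6v0d2, the proton pump subunit typical of osteoclasts, went from 0.987, 1.11 and 2 to 17.2, 20.4 and 11.9, and the lysosomal channel gene Mcoln2 from 1.97, 0 and 0 to 7.37, 16.7 and 10.9. So 3 of these 6 rising genes encode lysosomal proteins, a grouping noticed after their values were seen. Serpinb2, the plasminogen activator inhibitor 2 gene, passed the filter through the UNC1999 libraries alone and went from 0, 2.23 and 0.999 to 41.8, 27.9 and 34.8 counts. It overlaps Serpinb10 on the same strand, annotated as a polymorphic pseudogene, which went from 4.93, 2.23 and 6 to 57.3, 47.4 and 57.6 counts, so reads of the pair may have been split uncertainly. No fold is given for these genes because the DMSO counts are too few. Developmental transcription factor genes, the classical targets of PRC2, were too few in the table to describe: 3 of 70 sought.

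Abundant non-coding transcripts also differed between the groups. Lars2 and Mir6236, loci at which reads of ribosomal RNA are often counted, fell from 34842 ± 3411 to 21947 ± 961 and from 5714 ± 202 to 3469 ± 257 counts. Gm26917, another such locus, was at 0.598 times DMSO, and Rn7sk, the 7SK RNA, fell from 1070, 1107 and 1134 to 592, 503 and 543 counts. In each the groups were separate. The ribosomal RNA repeat entry Rn18s-rs5 spread widely, with 48725, 34429 and 86365 counts in DMSO and 56227, 20638 and 34074 in JQEZ5 (limma adjusted p = 0.362). Summed over 9 non-coding entries the range was 90291 to 148713 with DMSO and 55445 to 95640 with JQEZ5. A set of 8 histone genes summed to 5308 to 5529 and 7237 to 7671, with Hist1h1c at 4653 and 6438 counts on average. No mitochondrially encoded gene of 11 sought was in the table. The part of RNA selection or preservation in the other results was not tested.

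**Figure D4:**
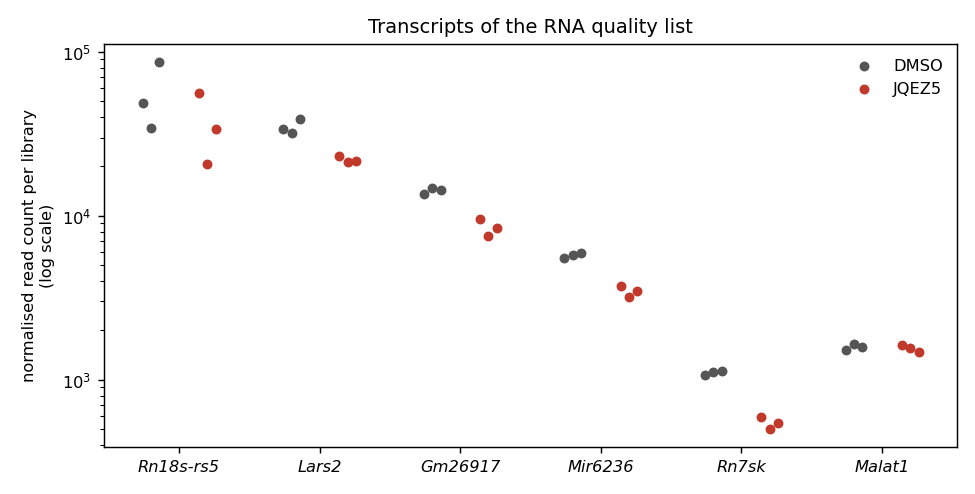
Normalised read count on a log axis for 6 abundant non-coding or ribosomal-RNA-bearing transcripts in each DMSO library (grey) and JQEZ5 library (red). Lars2, Gm26917, Mir6236 and Rn7sk are lower in all 3 JQEZ5 libraries, whereas Rn18s-rs5 and Malat1 overlap between the groups.

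Few markers of other blood and stromal cells were in the table, apart from those of megakaryocytes and platelets. The table held 1 of 12 erythroid, 3 of 15 mast cell, basophil and eosinophil, 3 of 13 B cell, 3 of 14 T and NK cell, 4 of 12 dendritic cell and 5 of 15 stromal and endothelial markers. Summed counts with DMSO and with JQEZ5 were 6.995 to 10.02 and 8.191 to 13.93 for erythroid, 182.6 to 199.3 and 131.1 to 169.6 for mast cell, basophil and eosinophil, and 60.96 to 75.72 and 53.85 to 67.99 for T and NK cell markers. The B cell sum was 230.5 to 278.8 counts with DMSO and 149.5 to 157.3 with JQEZ5, carried mainly by Cd79b. Megakaryocyte and platelet markers numbered 10 of 12, of which 5 were under 20 counts on average, and summed to 1862 to 1880 and 2084 to 2218; Vwf rose and Itgb3 fell, so the list had no common direction. The dendritic cell sum was 2354 to 2524 with DMSO and 2055 to 2294 with JQEZ5, and the stromal and endothelial sum 2367 to 2533 and 1907 to 2043, mostly from Pecam1, which myeloid cells also express, and Acta2. The part of other cells in the results was not tested.

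Set directly against UNC1999 at the same dose and time, JQEZ5 lay between DMSO and UNC1999 in the list means of some gene groups, while for others the JQEZ5 and UNC1999 means lay on opposite sides of DMSO. Over all tested genes 18.7% were higher and 17.7% lower with UNC1999 than with JQEZ5 in the same limma fit. Of the 45 lysosomal genes 39 were higher with UNC1999 and none lower, and of the 34 monocyte and macrophage genes 29 and none. Gpnmb was 2.13-fold higher with UNC1999 (log2 1.08, 95% interval 1.03 to 1.14) and Arg1 3.57-fold (log2 1.48, 1.39 to 1.57). Of S phase and G2 and M phase genes 37 of 39 and 40 of 43 were lower with UNC1999. The mean of the lysosomal list was 0.224 to 0.239 log2 units above DMSO in the JQEZ5 libraries and 0.492 to 0.499 in the UNC1999 libraries.

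The nucleolar list averaged 0.062 to 0.080 above DMSO with JQEZ5 and -0.243 to -0.196 with UNC1999, and 29 of its 30 members were lower with UNC1999 in the direct test. Of 58 stress response genes 30 were lower and 6 higher with UNC1999, and 16 of the 30 were tRNA synthetase and 8 amino acid synthesis genes. Of the 8 transcription regulators, Atf3 and Nupr1 were higher with UNC1999 (1.37- and 1.28-fold), Atf4 was lower (0.875 times) and 5 were not called. Slc7a11 was 1.39-fold higher with UNC1999 (log2 0.36, 0.26 to 0.46). Asns was lower with UNC1999 than with JQEZ5 (log2 -0.46, 95% interval -0.54 to -0.38, limma adjusted p = 3.19e-07), whereas Atf5 did not differ detectably (0.01, -0.11 to 0.13, limma adjusted p = 0.941). Kdm5b was 1.35-fold higher with UNC1999 (log2 0.34, 0.26 to 0.42). For Bmi1 the interval was -0.04 to 0.15 (limma adjusted p = 0.321), for Ccl4 -0.12 to 0.10 (limma adjusted p = 0.897), and for Cxcr2 the level was lower still with UNC1999 (log2 -0.18, -0.30 to -0.07). Ccl3 was lower with UNC1999 than with JQEZ5 (0.844 times, limma adjusted p = 2e-05).

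**Figure D5:**
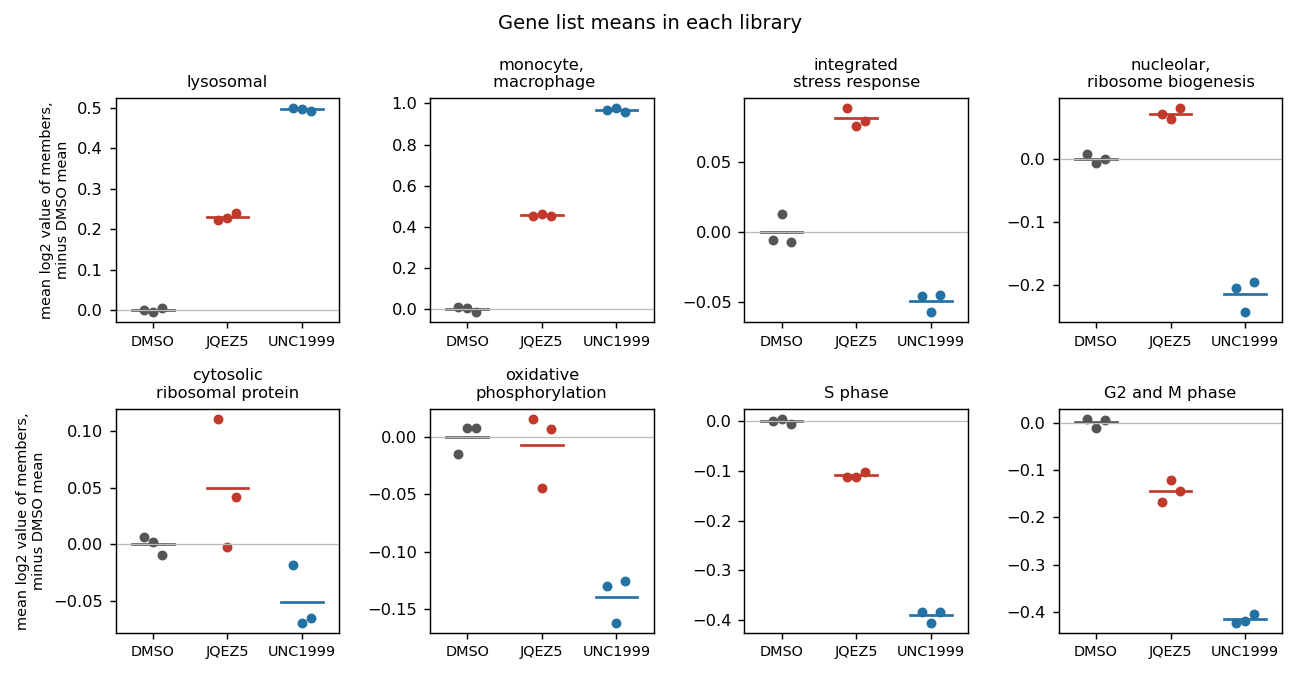
Mean log2 value over the tested members of 8 gene lists in each library, minus the DMSO mean (y axis), for the DMSO, JQEZ5 and UNC1999 libraries; points are libraries and bars group means, and each panel has its own scale. The JQEZ5 libraries lie between DMSO and UNC1999 for lysosomal, monocyte and macrophage, S phase and G2 and M phase genes, and above both for the stress response and nucleolar genes.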

How the data were processed

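RNA-seq of 9 libraries of the inhibitor experiment was used: DMSO, UNC1999 and JQEZ5, 3 each. Per the submitters' processing notes the tools were STAR 2.4.2, Salmon 0.1.19 and DESeq2 1.38.2 with mm10; the authors deposited log2 variance-stabilised values per gene. Which library kit each sample received, and whether counting used strand, is not given in the sources used here. The variance-stabilising transformation was inverted to give normalised counts, and all values came out whole reads within 0.05 of an integer after division by the library's step. Values were fitted with limma 3.58.1 (R 4.3.3), 1 mean per group over all 9 libraries, with an intensity trend and Benjamini-Hochberg adjustment over 10694 genes that exceeded the lowest value by 1 log2 unit (59.0 normalised counts) in at least 3 libraries. Calls used an adjusted p under 0.05. The 18 rows whose symbols a spreadsheet turned into dates were not named. The scripts were tested on simulated data.

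Gene positions came from the GENCODE annotation given for mm10, in which 13637 of 14178 symbols had 1 entry, and promoters from RefSeq. Named genes were Ezh2, Ezh1 and Kdm5b; the 15 largest called, non-overlapping differences each way, without predicted genes and pseudogenes; the called members of each list with the lowest adjusted p, and those that define its roles; and the 8 largest differences below the filter. Some further members were named as examples after their values were seen. Some list members are not reported here. Members and lists were chosen with earlier results of these data known. Alternatives changed the filter, scaling, variance model, libraries fitted and replicate block; limma-voom on the recovered counts was added after seeing the data.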

Additional observations from a re-analysis of the deposited data

How the results depend on the processing

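The counts of 1403 genes higher and 1126 lower with JQEZ5 became 1339 and 1083 without a filter, 1276 and 1026 with a filter at 2 log2 units, 1222 and 1330 after median centring, 1185 and 1322 after quantile normalisation, 1264 and 1025 without the intensity trend, 1437 and 1181 with robust variances, 1611 and 1357 with only the DMSO and JQEZ5 libraries, and 1421 and 1171 with limma-voom on recovered counts, an alternative chosen after seeing the data. Requiring a difference of 1 log2 unit left 23 higher and 2 lower. Leaving out each library in turn gave 1047 to 1209 higher and 776 to 975 lower. Replicate numbers did not pair the libraries: deviations of same-numbered DMSO and JQEZ5 libraries correlated at -0.035, -0.081 and 0.063, and a fit with the replicate number as a block called 1333 higher and 1049 lower.

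The 8 nucleolar genes called higher became 5 without the intensity trend and 4 to 7 when 1 library was left out; the 14 ribosomal protein genes became 7 after quantile normalisation, 9 without the trend and 12 to 16 when 1 library was left out. The cause was not tested. With 1 library left out, the members called were 21 to 23 for monocyte and macrophage, 24 to 27 for lysosomal, 12 to 14 for stress response and 13 to 15 for NRF2 and iron genes upward, and 14 to 16 for S phase and 17 to 22 for G2 and M phase genes downward. Of 144 named genes called in the filtered fit, 127 kept their call under all 15 alternatives, and none reversed. Genes under 20 counts were rarely called, and the part of sequencing depth in this was not tested.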
